A study of Mus musculus with 6 samples.

Results

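The genes described here encode the enzymes that make sterols and fatty acids, together with the regulators that control them, in mouse CD8+ T cells cultured with or without aminooxyacetic acid (AOA). The list was drawn up by pathway membership, with earlier results of these data known: 23 genes of the sterol branch (8 of the mevalonate steps, 10 of the steps after squalene and 5 regulators) and 13 genes of the fatty acid branch (10 of synthesis, elongation and desaturation and 3 long-chain acyl-CoA synthetases). All 36 were among the 11922 genes of the deposited count table, and all 36 passed the filter on low counts that left 11759 genes for testing. AOA blocks enzymes that use pyridoxal phosphate, the active form of vitamin B6, and the comparison asked which transcripts differed when T cells grew with it.

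CD8+ T cells were taken by magnetic sorting from spleens of C57BL6/J mice and activated on beads carrying anti-CD3 and anti-CD28 with recombinant human IL-2 at 100 units/ml. One culture of each mouse received water as vehicle and another received 0.25 mM AOA, through 72 hours of activation and 4 days of expansion, 7 days in all. Stranded mRNA libraries were sequenced, 3 per group, and replicate 1, 2 and 3 of either group came from the same 3 mice. Both groups were thus expanded, bead-activated cells held in culture, and neither was a resting or a tissue sample. In such bulk samples a change in the proportion of a cell type and a change in RNA per cell cannot be told apart.

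Sterols and fatty acids are both built from cytosolic acetyl-CoA. The mevalonate steps lead to isoprenoid units and to squalene, which is closed into a ring and trimmed into cholesterol, and acetyl-CoA carboxylase and fatty acid synthase build palmitate, which is then elongated, desaturated and joined to coenzyme A. Transcription factors of the SREBP family, held at the endoplasmic reticulum by the INSIG proteins and carried to the Golgi by SCAP, switch on many of these genes when membrane sterol is low. T cells draw on both branches when they enlarge and divide after activation.

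Libraries held 12881962 to 18934869 counts with vehicle and 18696114 to 21997078 with AOA. All 5 markers listed for CD8 T cells were detected. Their summed levels were 2908 to 3737 CPM (counts scaled to library size) with vehicle and 3994 to 4644 CPM with AOA. Of the 5, Cd8a and Cd8b1 rose. Cd3d, Cd3e and Cd3g, which CD4 T cells also express, did not pass the test (log2 fold change -0.13, -0.27 and -0.31). The 5 had a median of -0.13. CD4 T cell markers had summed levels of 82.2 to 137 CPM with vehicle and 21.7 to 31.3 CPM with AOA, and 2 of the 3 (Cd4 and Cd40lg) fell. The 3 myeloid markers found of 5 listed summed to 55.2 to 66.5 and 4.18 to 7.77 CPM, with Itgam and Cd68 lower and Lyz2 at 0 in 2 vehicle libraries. The 2 NK markers found of 3 summed to 20.1 to 114 and 3.53 to 11.6 CPM, with Klrb1c lower and Ncr1 at 0 in 2 vehicle libraries. The 4 B cell markers found of 5 summed to 12.6 to 16.6 and 22.6 to 30.7 CPM, with Cd79b higher, and no erythroid marker was in the table. All 12 proliferation genes, among them Mki67 and Top2a, were higher with AOA, with summed levels of 1173 to 1420 and 6020 to 7339 CPM. The part of these differences in the results for the lipid genes was not tested. Vehicle replicate 2 and AOA replicate 1 stood apart from the other libraries of their groups: the chi-square per gene between replicates was 55.2 to 70.9 for pairs holding either of them and 10.03 to 10.5 for the others.

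The lipid synthesis genes moved in both directions. With AOA, 13 of the 36 rose, 6 fell and 17 did not pass the test (edgeR quasi-likelihood test, Benjamini-Hochberg adjusted p under 0.05 over all genes tested), against 53.0% of all genes called, 26.2% higher and 26.8% lower. The share of the 36 that was called was 52.8%, close to that background. Their median log2 fold change was 0.09, beside -0.02 over all genes tested. In the sterol branch 7 genes rose and 4 fell of 23, with a median log2 fold change of 0.09. In the fatty acid branch 6 rose and 2 fell of 13, with a median of 0.38. In 13 of the 36 every AOA library was above every vehicle library (31.0% of all genes) and in 7 every one was below (31.1%).

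These counts depended on which libraries were in the fit. Without vehicle replicate 2, 14 of the 36 rose and 10 fell (57.6% of all genes called, 29.6% higher and 27.9% lower). Without AOA replicate 2, 9 rose and 7 fell (45.8% called, 23.2% higher and 22.6% lower). Leaving out AOA replicate 1 gave 16 higher and 6 lower (50% called, 25.1% higher and 25.0% lower). The count of lower genes was 4 when vehicle replicate 1, vehicle replicate 3 or AOA replicate 3 was left out. The higher genes then numbered 11 without vehicle replicate 1 (41.9% of all genes called, 21.3% higher and 20.6% lower), 12 without vehicle replicate 3 (43.4%, 22.1% and 21.3%) and 12 without AOA replicate 3 (42.6%, 21.8% and 20.8%). With the mouse as a block 14 rose and 7 fell (53.5% called, 26.6% higher and 26.9% lower). DESeq2 gave 14 and 10 (53.6%, 26.8% and 26.8%).

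**Figure D1:**
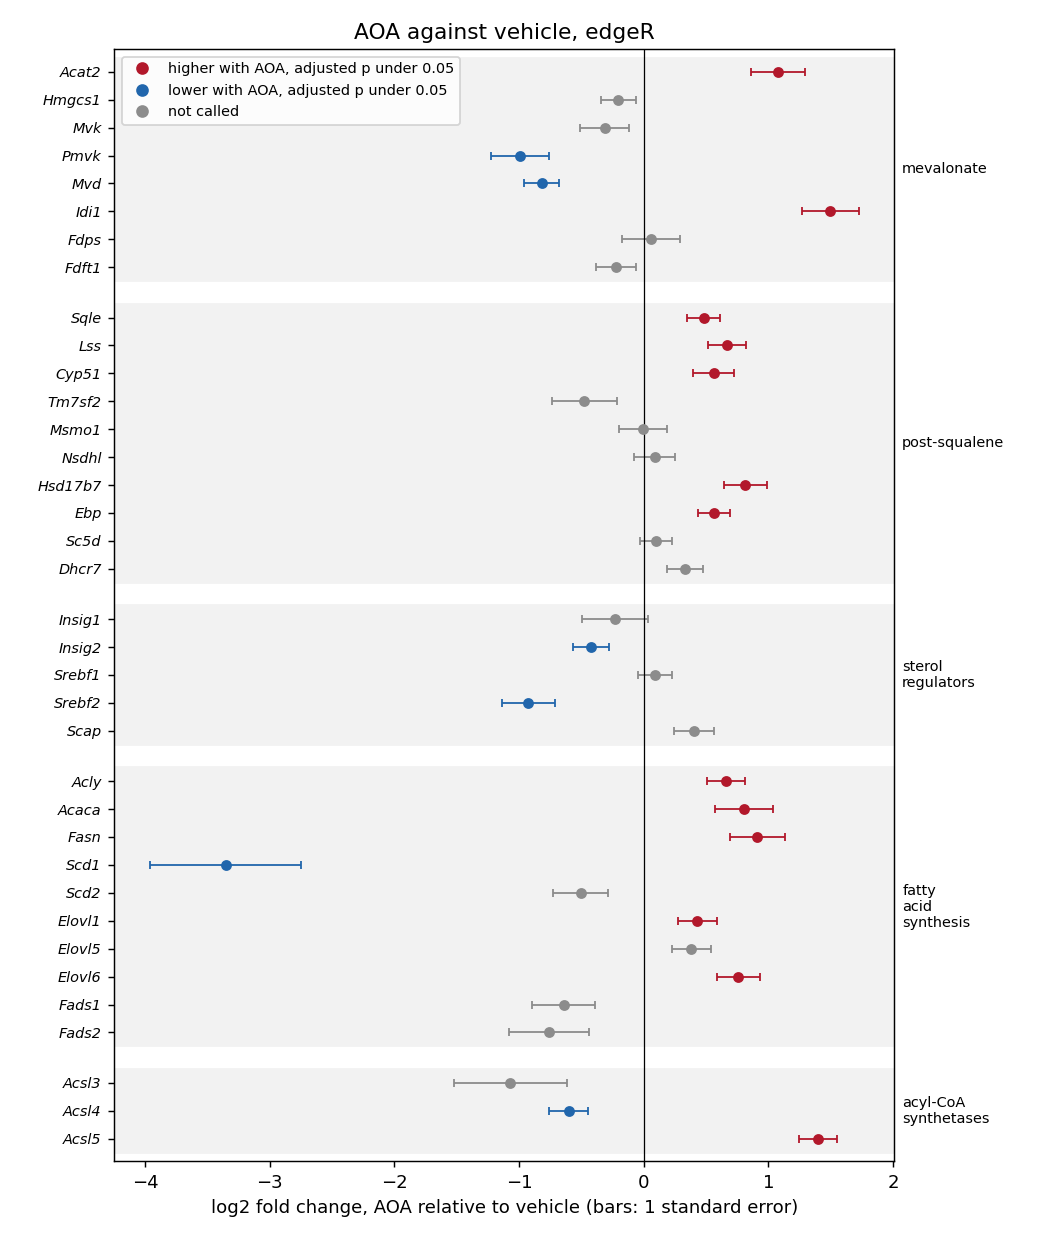
Log2 fold change of each of the 36 genes, AOA against vehicle, with its standard error, grouped by step of the pathway and marked by whether it passed the test. The 5 called genes after squalene all lie above 0, called genes of the mevalonate steps lie on both sides, and the lowest point of all is Scd1 at -3.35.

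Promoter sequences are shown for 5 members, since the 36 genes are often treated as co-regulated. A RefSeq promoter of GRCm38.p6, from 250 bases before to 50 bases after the start of the gene, was at hand for 30 of the 36. The sterol regulatory element was searched as TCACNCCAC, the CCAAT box that binds NF-Y as CCAAT and the GC box that binds Sp1 as GGGCGG, each on both strands. CCAAT was in 24 of the 30 promoters (80.0%), compared with 41.1% of 27025 genes and 43.0% of the 9438 tested genes with a promoter. GGGCGG was also in 24 of the 30 (80.0%), against 38.2% of all promoters and 68.9% of those of tested genes. TCACNCCAC was in 1 of the 30 (3.33%), that of Hmgcs1, against 1.44% of all promoters and 1.36% of those of tested genes. By call, CCAAT was in 9 of 12 raised, 4 of 5 lowered and 11 of 13 uncalled members. These matches describe the letters in the window and are not evidence of binding, and the lack of a match is not evidence against binding. Each sequence below is the 250 bases before the RefSeq start on the strand of the gene, with CCAAT (or ATTGG on the other strand), GGGCGG (or CCGCCC) and TCACNCCAC in capitals. Hmgcs1 (chr13:119690101-119690350, plus strand) is shown for its sterol element, which begins 137 bases before the start, Ebp (chrX:8193513-8193762, minus strand) as a raised and Mvd (chr8:122443423-122443672, minus strand) as a lowered sterol gene, and Fasn (chr11:120824548-120824797, minus strand) and Acsl5 (chr19:55253119-55253368, plus strand) as raised fatty acid genes. In the Fasn promoter CCAATTGG holds overlapping matches on the opposite strands. The promoter starts of Fasn and Acsl5 lie inside the longer gene spans given below for these genes, so their windows do too.
Hmgcs1: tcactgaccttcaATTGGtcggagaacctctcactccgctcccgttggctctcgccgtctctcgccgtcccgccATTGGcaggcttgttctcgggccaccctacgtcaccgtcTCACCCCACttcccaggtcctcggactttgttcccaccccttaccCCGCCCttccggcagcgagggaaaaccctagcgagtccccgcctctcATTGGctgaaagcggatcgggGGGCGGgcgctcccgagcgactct
Ebp: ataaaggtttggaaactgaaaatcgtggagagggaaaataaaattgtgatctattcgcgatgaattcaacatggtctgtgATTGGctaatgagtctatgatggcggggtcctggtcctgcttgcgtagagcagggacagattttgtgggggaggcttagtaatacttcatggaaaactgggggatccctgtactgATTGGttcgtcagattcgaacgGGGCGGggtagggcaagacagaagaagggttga
Mvd: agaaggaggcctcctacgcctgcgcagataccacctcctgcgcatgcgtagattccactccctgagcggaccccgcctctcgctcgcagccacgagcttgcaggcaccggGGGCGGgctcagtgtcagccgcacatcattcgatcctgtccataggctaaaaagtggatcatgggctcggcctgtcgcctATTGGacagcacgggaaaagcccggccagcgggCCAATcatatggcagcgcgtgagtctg
Fasn: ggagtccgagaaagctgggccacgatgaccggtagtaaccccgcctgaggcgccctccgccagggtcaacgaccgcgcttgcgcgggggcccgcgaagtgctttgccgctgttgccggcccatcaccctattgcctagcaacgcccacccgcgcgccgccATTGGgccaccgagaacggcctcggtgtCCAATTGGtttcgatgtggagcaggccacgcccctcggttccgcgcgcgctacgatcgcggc
Acsl5: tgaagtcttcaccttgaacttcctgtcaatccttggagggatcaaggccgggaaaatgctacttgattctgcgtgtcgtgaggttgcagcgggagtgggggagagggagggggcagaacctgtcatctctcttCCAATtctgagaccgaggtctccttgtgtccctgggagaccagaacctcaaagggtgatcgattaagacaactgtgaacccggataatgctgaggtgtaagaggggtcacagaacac

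The mevalonate steps held genes that moved in opposite directions. Acat2 and Idi1 were higher with AOA, Pmvk and Mvd were lower, and 4 of the 8 did not pass the test. The shares, 25% higher and 25% lower, were near those of all genes tested (26.2% and 26.8%). Acat2, which joins molecules of acetyl-CoA at the entry to the route (GRCm38 chromosome 17, 12943042 to 12960725, and so for all coordinates that follow), measured 20.0, 11.5 and 20.0 CPM with vehicle and 36.9, 38.5 and 33.3 CPM with AOA. The groups did not overlap, and Acat2 rose (log2 fold change 1.08, SE 0.21, adjusted p = 0.00265). Its near-identical neighbour Acat3 was counted separately and also rose (log2 fold change 1.17, SE 0.16, adjusted p = 4.28e-04), so reads assigned between the pair are uncertain. Hmgcs1, which makes HMG-CoA (chromosome 13, 119690351 to 119708260), did not pass the test (log2 fold change -0.20, adjusted p = 0.247). Its vehicle values ranged from 146 to 189 CPM and those with AOA from 144 to 156 CPM.

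Mevalonate is phosphorylated by Mvk, phosphorylated again by Pmvk and decarboxylated by Mvd. Mvk did not pass the test (log2 fold change -0.31, adjusted p = 0.208). Pmvk (chromosome 3, 89454541 to 89469014) measured 43.4, 25.5 and 46.3 CPM with vehicle and 21.1, 21.0 and 15.8 CPM with AOA. Every AOA library was below every vehicle library, and Pmvk fell (log2 fold change -0.99, SE 0.23, adjusted p = 0.00615). Mvd (chromosome 8, 122433596 to 122443422) measured 79.9, 67.8 and 75.3 CPM with vehicle and 44.8, 45.5 and 36.1 CPM with AOA. Its groups were likewise apart and it fell (log2 fold change -0.82, adjusted p = 0.00130).

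Idi1, the isomerase that turns isopentenyl diphosphate into its reactive partner (chromosome 13, 8885606 to 8892396), had the largest rise of the sterol branch. It measured 6.19, 6.02 and 6.84 CPM with vehicle and 23.5, 16.4 and 13.9 CPM with AOA. The vehicle values rested on 78, 95 and 126 counts. The vehicle libraries lay close together, all AOA libraries were above them, and the rise was 2.83-fold (log2 fold change 1.50, SE 0.23, adjusted p = 6.71e-04). Fdps, which lengthens the isoprenoid chain to farnesyl diphosphate, had a log2 fold change of 0.06 (adjusted p = 0.851), and Fdft1, which joins farnesyl units into squalene, had -0.22 (adjusted p = 0.271). For Fdft1 the difference passed without vehicle replicate 2 (log2 fold change -0.34, adjusted p = 0.0483).

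After squalene, every gene that passed the test was higher with AOA. Of the 10 genes, 5 rose (Sqle, Lss, Cyp51, Hsd17b7 and Ebp) and 0 fell, and 0 were lower at an unadjusted p under 0.05 by edgeR, DESeq2 or limma voom. The 50% of these genes that were called stand beside 53.0% of all genes (26.2% higher and 26.8% lower). Sqle, the squalene epoxidase (chromosome 15, 59315092 to 59331193), measured 77.3, 63.5 and 73.1 CPM with vehicle and 97.2, 109 and 93.0 CPM with AOA. Lss, which closes the ring to lanosterol (chromosome 10, 76531565 to 76557139), measured 43.2, 45.3 and 35.8 CPM with vehicle and 59.5, 75.8 and 61.8 CPM with AOA. Cyp51, which removes a methyl group from lanosterol, measured 100.3, 74.2 and 107 CPM with vehicle and 144, 148 and 124 CPM with AOA. None of these genes had an AOA library at or below a vehicle library. The differences were of modest size, with log2 fold changes of 0.48 for Sqle (adjusted p = 0.0133), 0.67 for Lss (adjusted p = 0.00543) and 0.56 for Cyp51 (adjusted p = 0.0168). Without AOA replicate 2, Sqle (adjusted p = 0.0561) and Cyp51 (adjusted p = 0.0522) no longer passed.

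Hsd17b7, a reductase of the demethylation steps (chromosome 1, 169949535 to 169969242), measured 11.3, 14.0 and 10.9 CPM with vehicle and 19.7, 23.2 and 20.7 CPM with AOA. Ebp, the isomerase that moves a ring double bond (chromosome X, 8185329 to 8193512), measured 49.6, 53.8 and 58.0 CPM with vehicle and 87.0, 74.4 and 77.6 CPM with AOA. In both, all AOA libraries were above all vehicle libraries, and they rose with log2 fold changes of 0.82 (adjusted p = 0.00347) and 0.57 (adjusted p = 0.00544). Dhcr7, which reduces the last double bond on the way to cholesterol, also had groups that did not overlap, with 32.5 to 38.9 CPM and 39.4 to 50.3 CPM, but did not pass (log2 fold change 0.33, adjusted p = 0.0807). It passed without AOA replicate 1 (log2 fold change 0.42, adjusted p = 0.0298). Tm7sf2, Msmo1, Nsdhl and Sc5d, which act between lanosterol and cholesterol, had overlapping groups and log2 fold changes of -0.48, -0.0043, 0.09 and 0.10, and none passed the test.

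Regulators of the pathway were lower or did not pass the test. Srebf2, the SREBP gene most tied to sterol synthesis (chromosome 15, 82147269 to 82205379), measured 573, 375 and 502 CPM with vehicle and 194, 291 and 279 CPM with AOA. The highest AOA library was below the lowest vehicle library, and Srebf2 fell 1.90-fold (log2 fold change -0.92, SE 0.21, adjusted p = 0.00547). Srebf1, the SREBP gene most tied to fatty acid synthesis, measured 119, 107 and 114 CPM with vehicle and 104, 134 and 124 CPM with AOA. Those values overlapped and Srebf1 did not pass the test (log2 fold change 0.09, adjusted p = 0.602).

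Insig2, which retains the SREBP complex (chromosome 1, 121304353 to 121332662), measured 31.3, 27.8 and 29.0 CPM with vehicle and 23.9, 20.0 and 21.7 CPM with AOA. Its groups did not overlap and it fell (log2 fold change -0.42, adjusted p = 0.0306), although the adjusted p was 0.0972 to 0.125 when vehicle replicate 1, vehicle replicate 3, AOA replicate 2 or AOA replicate 3 was left out. Insig1, its paralog and itself a target of SREBP, measured 45.9, 23.1 and 44.6 CPM with vehicle and 40.2, 28.8 and 27.8 CPM with AOA, with wide overlap (log2 fold change -0.23, adjusted p = 0.486). Scap, the escort of SREBP, measured 83.0, 105 and 77.6 CPM with vehicle and 98.7, 129.7 and 123 CPM with AOA. These groups overlapped through vehicle replicate 2, the highest vehicle library, and Scap did not pass (log2 fold change 0.40, adjusted p = 0.0630). It did pass with the mouse as a block (log2 fold change 0.41, adjusted p = 0.0457), without vehicle replicate 2 (0.58, adjusted p = 0.0105) and without AOA replicate 1 (0.51, adjusted p = 0.0301). Among the 5 regulators, 0 rose by edgeR, by DESeq2 or by limma voom, and 1, Scap, was higher at an unadjusted p under 0.05. The 2 of 5 that fell stand beside 26.8% of all genes lower, and the 0 that rose beside 26.2% higher.

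**Figure D2:**
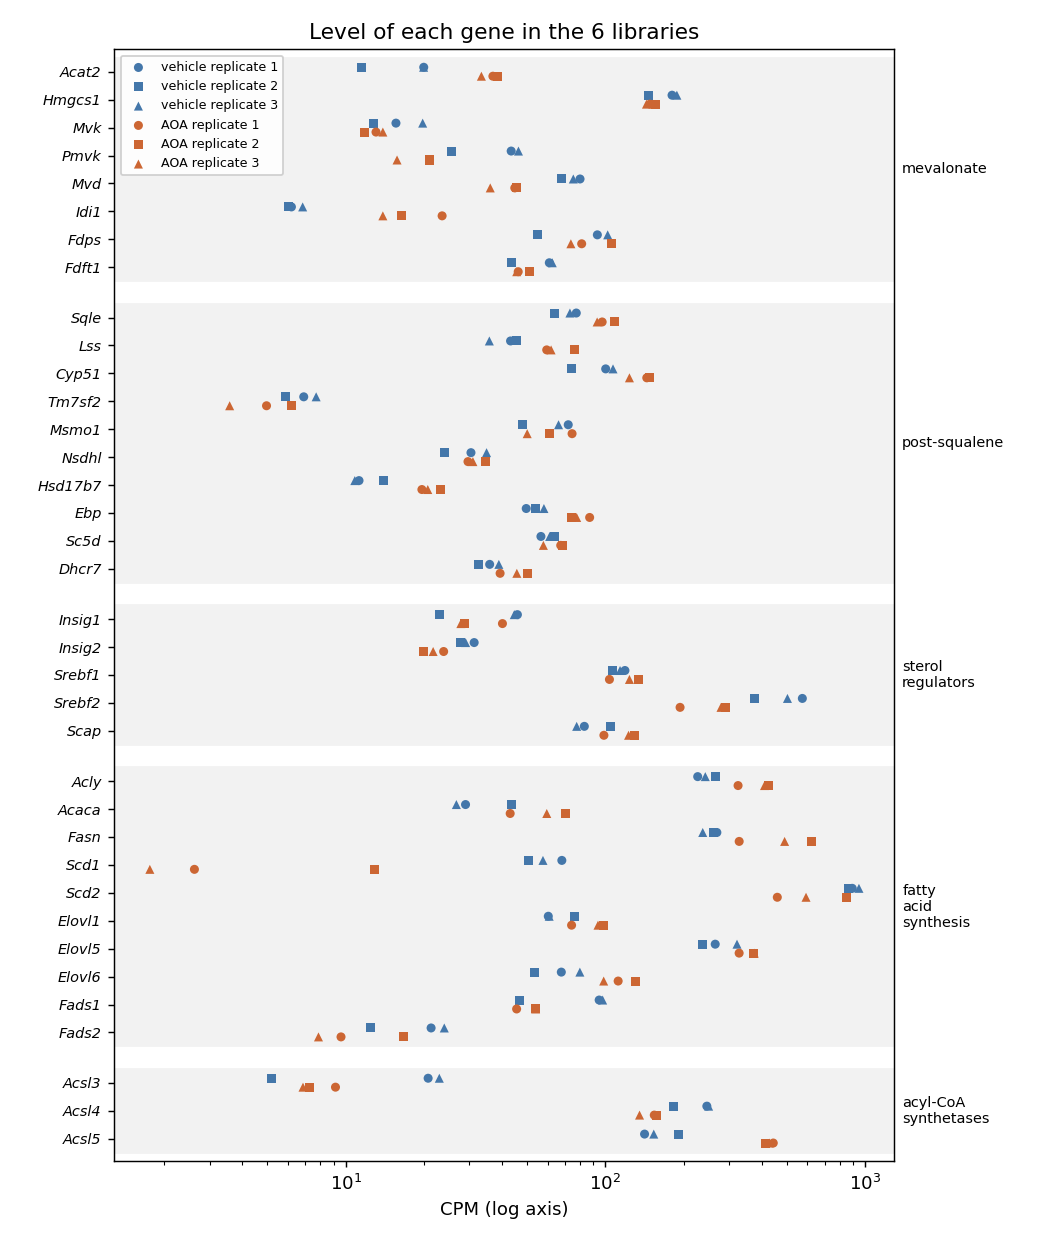
Level of each gene in each of the 6 libraries in CPM on a log axis, grouped by pathway step, with colour for the group and marker shape for the replicate. The AOA points of Scd1, at 1.77 to 12.9 CPM, lie far to the left of its vehicle points at 50.6 to 68.0 CPM.

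Of the 10 genes of fatty acid synthesis, elongation and desaturation, 5 rose, 1 fell and 4 did not pass the test. Of all genes, 26.2% were higher and 26.8% lower. DESeq2 called 6 of the 10 higher and 4 lower, beside 26.8% of all genes higher and 26.8% lower. With the mouse as a block 5 rose and 2 fell, beside 26.6% and 26.9%. Acly, Acaca and Fasn, which lead from citrate to palmitate, were among those that rose. Acly, which splits citrate into cytosolic acetyl-CoA (chromosome 11, 100476352 to 100528000), measured 227, 265 and 243 CPM with vehicle and 324, 426 and 410.0 CPM with AOA. Acaca, the carboxylase of the committed step, measured 29.0, 43.4 and 26.7 CPM with vehicle and 43.0, 70.6 and 59.5 CPM with AOA. Fasn, the synthase that builds the chain (chromosome 11, 120805958 to 120825166), measured 269, 260.1 and 237 CPM with vehicle and 328, 623 and 489.9 CPM with AOA. Acly and Fasn had groups that did not overlap, and Acaca overlapped through vehicle replicate 2 and AOA replicate 1. Acly rose with a log2 fold change of 0.66 (adjusted p = 0.00615), Acaca with 0.80 (adjusted p = 0.0165) and Fasn with 0.91 (adjusted p = 0.00722). For Fasn the AOA libraries varied widely, with AOA replicate 1 the lowest and AOA replicate 2 the highest. Acaca was not called when vehicle replicate 1, vehicle replicate 3 or AOA replicate 2 was left out (adjusted p 0.0545 to 0.0584).

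Elongases lengthen the fatty acid by steps of acetate. Elovl6, which acts on palmitate (chromosome 3, 129532386 to 129638495), measured 67.7, 53.6 and 79.8 CPM with vehicle and 112, 130.2 and 98.6 CPM with AOA. The groups were apart and Elovl6 rose (log2 fold change 0.76, adjusted p = 0.00558). Elovl1, which makes very long saturated chains, measured 60.3, 76.3 and 60.8 CPM with vehicle and 74.2, 98.1 and 93.7 CPM with AOA, with AOA replicate 1 below the highest vehicle library. It passed the test narrowly (log2 fold change 0.43, adjusted p = 0.0440) and was not called when vehicle replicate 1, vehicle replicate 3, AOA replicate 2 or AOA replicate 3 was left out (adjusted p 0.127 to 0.140). The call was also lost on all 6 libraries when counts were scaled by their totals (adjusted p = 0.0548) or filtered at 10 CPM in 3 libraries (adjusted p = 0.0604). Elovl5, which extends polyunsaturated chains, had 236 to 321 CPM with vehicle and 327 to 374 CPM with AOA. Its groups did not overlap, yet it did not pass (log2 fold change 0.38, adjusted p = 0.0654). It passed by DESeq2 (adjusted p = 0.0298) and without the filter on low counts (adjusted p = 0.0486), and also without vehicle replicate 3 (adjusted p = 0.0380) and without AOA replicate 1 (adjusted p = 0.0476).

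Scd1 had the largest change of all 36 genes, in the direction opposite to the palmitate enzymes. Scd1 encodes the desaturase that places the first double bond in stearate and palmitate (chromosome 19, 44394450 to 44407709). It measured 68.0, 50.6 and 57.5 CPM with vehicle and 2.62, 12.9 and 1.77 CPM with AOA. These AOA values rested on 57, 245 and 35 counts. AOA replicate 2 was the highest of the AOA libraries but still below all vehicle libraries, and Scd1 was 10.2-fold lower (log2 fold change -3.35, SE 0.61, adjusted p = 0.00164). The log2 fold change was -4.73 without AOA replicate 2. Scd1, Scd2 and Scd4 are alike in sequence and were counted separately, so the assignment of reads between them is uncertain.

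Scd2, the paralog with the higher level per kilobase, did not pass the test. It measured 892, 863 and 947 CPM with vehicle and 459, 851 and 592 CPM with AOA. All AOA values were below all vehicle values, but AOA replicate 2 at 851 CPM was just under vehicle replicate 2 at 863 CPM, with log2 fold change -0.51, adjusted p = 0.0809. It passed with the mouse as a block (log2 fold change -0.55, adjusted p = 0.0450), by DESeq2 (-0.49, adjusted p = 0.0445) and without AOA replicate 2 (-0.77, adjusted p = 0.0137). Fads1 and Fads2, which desaturate polyunsaturated chains, had log2 fold changes of -0.64 (adjusted p = 0.0558) and -0.76 (adjusted p = 0.0717) and overlapping groups. Without vehicle replicate 2 both passed, at -0.88 (adjusted p = 5.21e-04) for Fads1 and -0.96 (adjusted p = 0.0163) for Fads2, and Fads2 also passed without AOA replicate 2 (-1.13, adjusted p = 0.0130). On all 6 libraries both passed by DESeq2 (adjusted p = 0.0307 for Fads1 and 0.0440 for Fads2), and Fads1 passed by edgeR after a filter of at least 10 CPM in 3 libraries (adjusted p = 0.0460).

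Of the 3 acyl-CoA synthetases, Acsl5 rose, Acsl4 fell and Acsl3 did not pass the test. Acsl5, which prepares long-chain fatty acids for storage or oxidation (chromosome 19, 55251861 to 55296628), measured 142, 191 and 154 CPM with vehicle and 443, 413 and 427 CPM with AOA. The lowest AOA value, 413 CPM, was far above the highest vehicle value, 191 CPM, and Acsl5 rose 2.64-fold (log2 fold change 1.40, SE 0.15, adjusted p = 1.29e-04). Acsl4, which prefers arachidonate (chromosome X, 142317993 to 142390802), measured 246, 183 and 249.8 CPM with vehicle and 154, 158 and 135 CPM with AOA. All AOA libraries were below the vehicle libraries and Acsl4 fell (log2 fold change -0.60, adjusted p = 0.0107), but it was not called when vehicle replicate 1, vehicle replicate 3 or AOA replicate 3 was left out (adjusted p 0.0518 to 0.0541). Acsl3, an enzyme of lipid droplets, measured 20.8, 5.20 and 23.0 CPM with vehicle and 9.15, 7.29 and 6.86 CPM with AOA. Here vehicle replicate 2 was below every AOA library, and Acsl3 did not pass (log2 fold change -1.07, SE 0.45, adjusted p = 0.0713). It passed by DESeq2 on all 6 libraries (log2 fold change -1.05, adjusted p = 0.0272) and by edgeR without vehicle replicate 2 (-1.46, adjusted p = 1.68e-04).

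Levels of different genes were set side by side as CPM per kilobase of gene length, given here as mean ± SD of 3 libraries. With vehicle the highest level was that of Scd2 (165 ± 7.83 with vehicle and 116 ± 36.5 with AOA), followed by Srebf2 (106 ± 22.0 with vehicle and 55.7 ± 11.6 with AOA) and Elovl5 (98.5 ± 15.6 with vehicle and 128 ± 9.35 with AOA). With AOA the order of the 36 was headed by Acsl5 (51.5 ± 8.24 with vehicle and 136 ± 4.84 with AOA), which had been in place 6 with vehicle. Acsl5, Elovl5 and Scd2 did not differ beyond their spread with AOA, and Srebf2 and Elovl5 did not with vehicle. Scd1 went from place 26 (12.1 ± 1.81 with vehicle and 1.19 ± 1.29 with AOA) to place 36, the lowest mean of the list, which did not differ beyond its spread from that of Acsl3 in place 35. Idi1 (2.22 ± 0.15 with vehicle and 6.27 ± 1.74 with AOA) had the lowest mean with vehicle, though its vehicle libraries overlapped in range with those of Hsd17b7 and of Acsl3, and was in place 32 with AOA, and Fasn (25.7 ± 1.64 with vehicle and 48.3 ± 14.9 with AOA) went from place 16 to place 7.

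**Figure D3:**
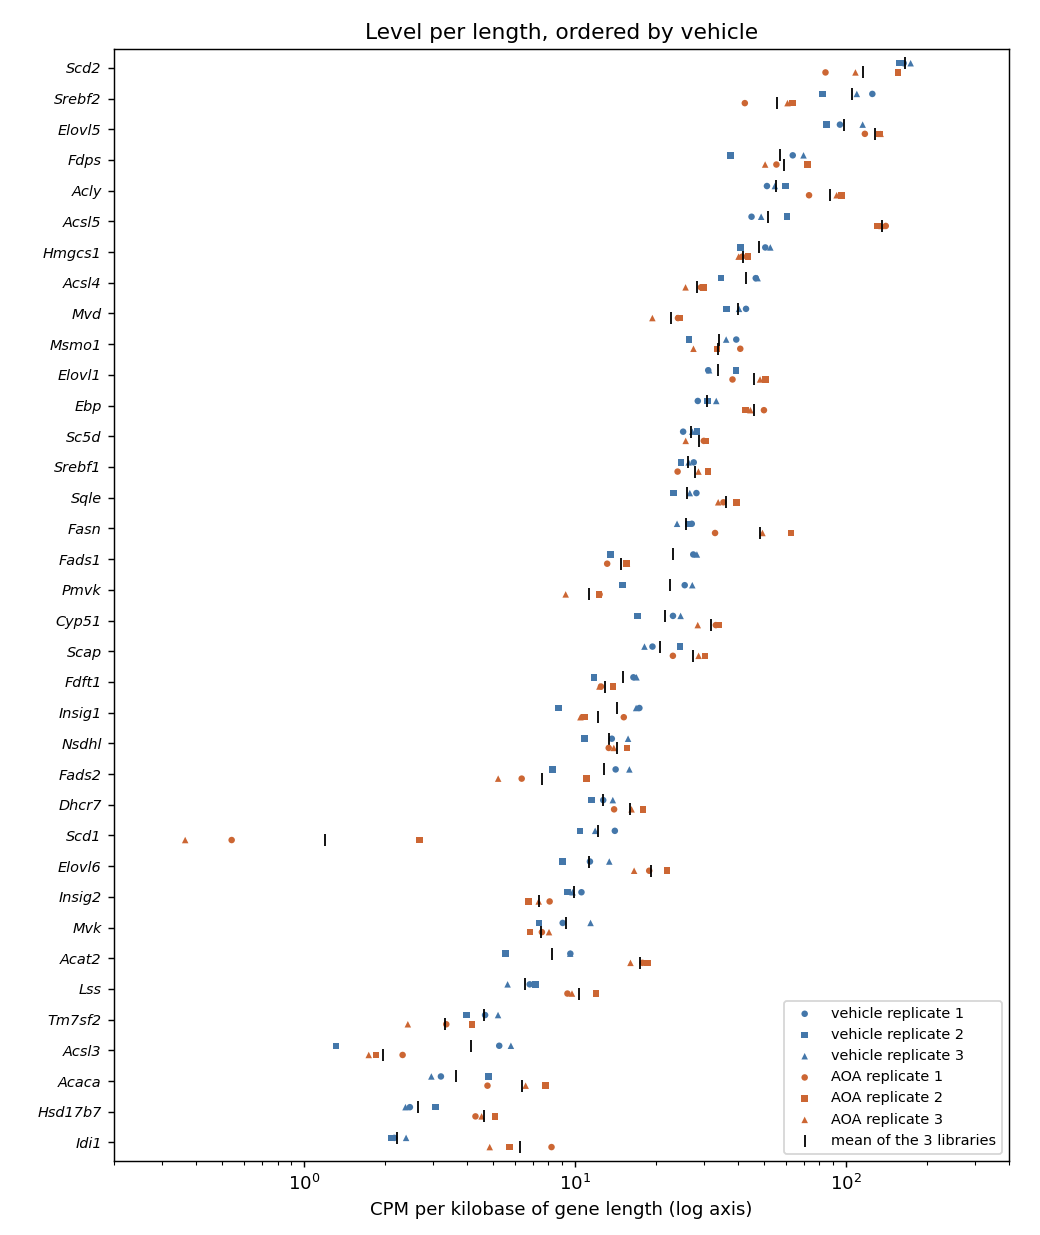
CPM per kilobase of gene length for each gene on a log axis, with a point for each library and a tick at the group mean. Scd2 is the highest gene with vehicle and Acsl5 the highest with AOA, and the mean of Scd1 with AOA is the lowest of the plot.

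Summed over the 8 mevalonate genes, levels per kilobase were 219.9, 157 and 230.5 with vehicle and 179, 197 and 161 with AOA for replicates 1 to 3, and the groups overlapped. Summed over the 10 genes after squalene they were 185, 162 and 191 with vehicle and 234, 235 and 207 with AOA, and every AOA library was above every vehicle library. The fatty acid branch summed to 535, 511 and 573 with vehicle and to 562, 720.4 and 641 with AOA, with overlap between vehicle replicate 3 and AOA replicate 1. The sums are descriptions and carry no test.

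Paralogs were also compared by their share of the summed level per kilobase of their group. Scd1 held 7.91, 6.20 and 6.41% of Scd1 and Scd2 together with vehicle and 0.639, 1.69 and 0.335% with AOA. Acsl4 held 48.1, 35.8 and 46.4% of the 3 synthetases with vehicle and 17.0, 18.3 and 15.7% with AOA. Acsl5 held 46.4, 62.8 and 47.9% with vehicle and 81.7, 80.5 and 83.2% with AOA. None of these shares overlapped between groups. The differences of means were -5.95 percentage points for Scd1, -26.4 for Acsl4 and 29.4 for Acsl5, each with p = 0.1 in a two-sided exact permutation test, the smallest that 3 against 3 libraries allow, and 0.2 after Benjamini-Hochberg adjustment over 8 shares. Insig1 held 62.1, 48.1 and 63.2% of Insig1 and Insig2 with vehicle and 65.3, 61.6 and 58.8% with AOA (exact permutation p = 0.7). The Acsl3 share differed by -2.99 points (exact permutation p = 0.1). Of the 3 elongases, the Elovl6 share differed by 2.11 points (exact permutation p = 0.2), that of Elovl5 by -1.78 (p = 0.5) and that of Elovl1 by -0.33 (p = 0.9). Leaving out a library changed the sign of the differences for Insig1 (-0.75 to 6.80 points, negative without vehicle replicate 2), Elovl5 (-4.09 to 0.11, positive without vehicle replicate 3) and Elovl1 (-2.50 to 2.50, positive without vehicle replicate 2 or AOA replicate 1).

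**Figure D4:**
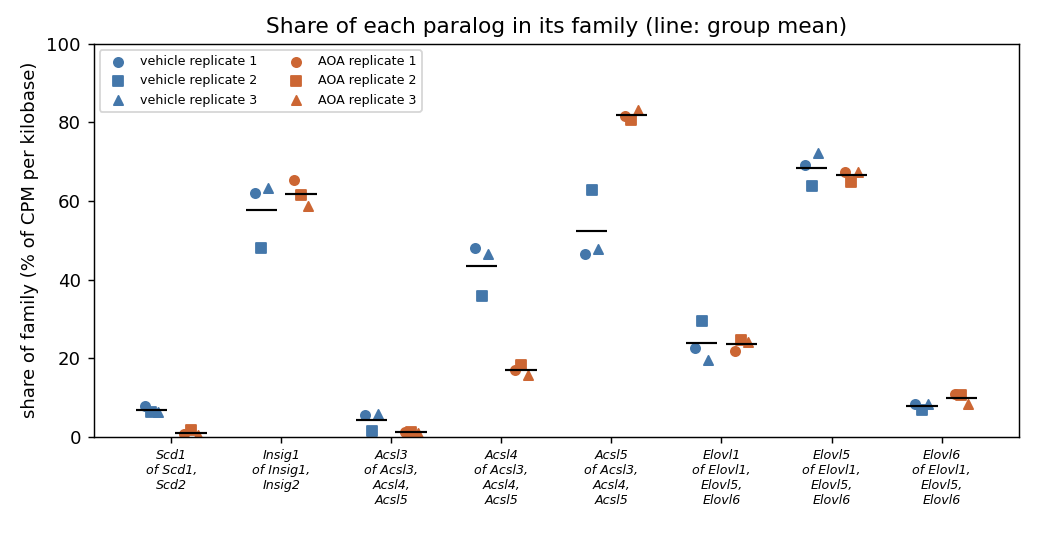
Share of each paralog in the summed level per kilobase of its group, in percent, with a point per library and a line at the group mean. The Acsl5 points lie between 46.4 and 62.8% with vehicle and between 80.5 and 83.2% with AOA, and the Insig1 points overlap.

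The libraries of mouse 2 differed from those of the other mice for many of these genes. Within mice, 16 of the 36 were higher with AOA in all 3 (44.4%, against 35.8% of all genes tested) and 8 were lower in all 3 (22.2%, against 36.8%). A further 9 were higher with AOA only in mouse 2 (25.0%, against 6.55% of all genes tested): Hmgcs1, Fdps, Fdft1, Tm7sf2, Nsdhl, Insig1, Fads1, Fads2 and Acsl3. The median within-mouse log2 difference of the sterol branch was -0.04, 0.33 and -0.17 in mice 1 to 3, and that of the fatty acid branch was 0.29, 0.48 and 0.22. The sterol branch thus had no common sign over the mice by this median, and the fatty acid branch did. The genes after squalene had medians of 0.29, 0.57 and 0.22, the mevalonate genes -0.27, 0.16 and -0.46, and the sterol regulators -0.20, 0.30 and -0.41. Within the fatty acid branch, the genes of synthesis, elongation and desaturation had medians of 0.29, 0.53 and 0.26. The acyl-CoA synthetases had -0.67, 0.48 and -0.88, with no common sign.

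Both libraries of mouse 2 took part in this. Vehicle replicate 2 was the lowest vehicle library for 26 of the 36 genes (72.2%), compared with 41.3% of all genes tested, and for 18 of the 23 sterol genes (78.3%). AOA replicate 2 was the highest AOA library for 25 of the 36 (69.4%), compared with 31.9% of all genes tested. The order of libraries for the members was looked at after their values had been seen, and it is a description without a test.

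**Figure D5:**
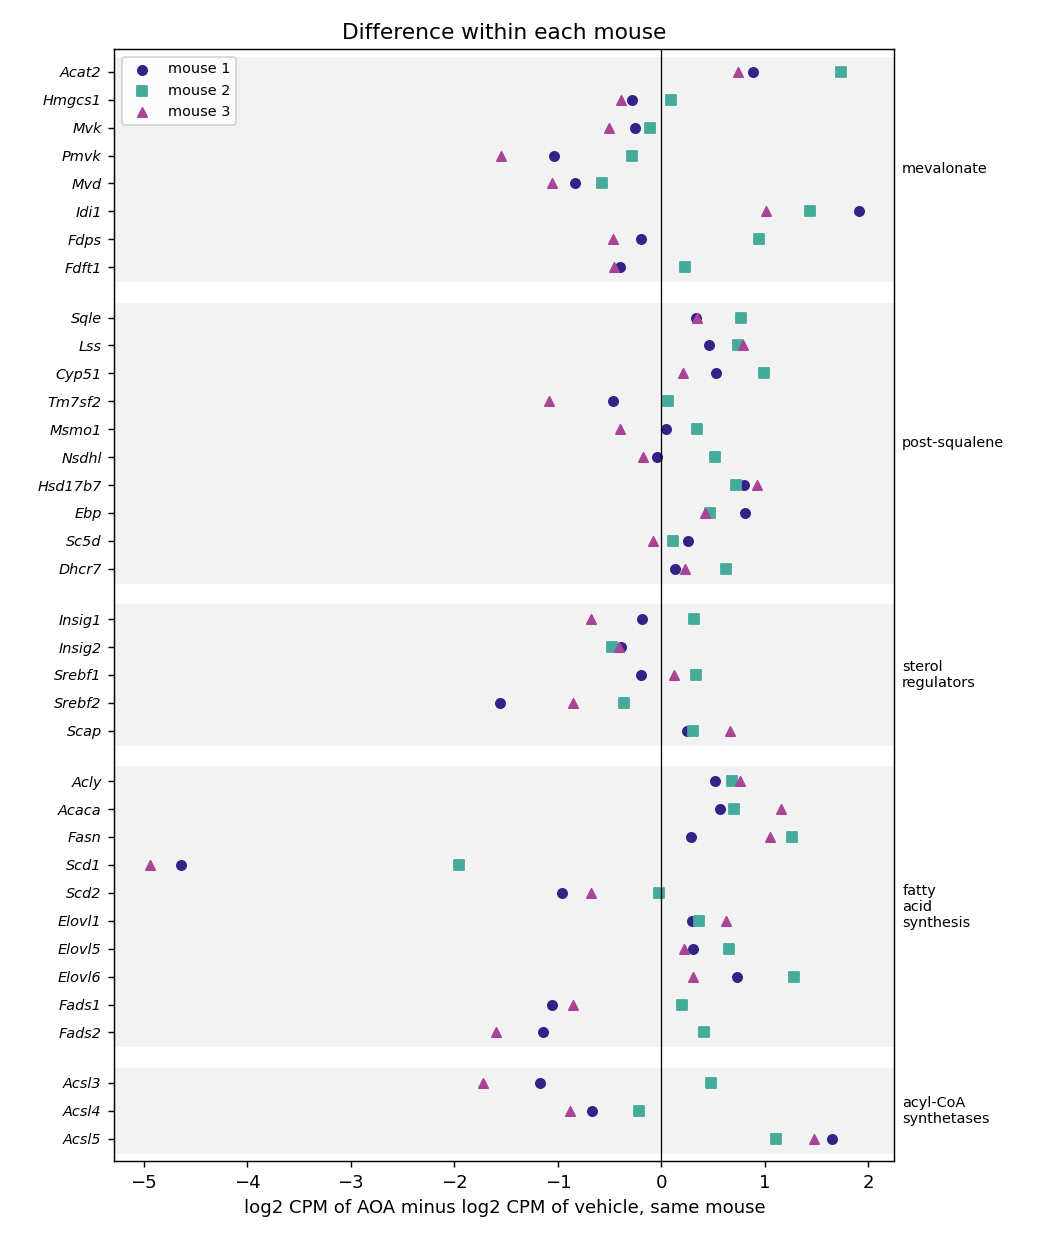
Log2 difference between AOA and vehicle within each mouse for every gene, on the log2 CPM scale, with the genes grouped by pathway step. Genes such as Fdps, Fads2 and Acsl3 lie above 0 in mouse 2 and below 0 in mice 1 and 3, while Scd1 lies below 0 and Acsl5 above 0 in all 3.

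Of 58 further genes of sterol and fatty acid metabolism that were listed beside the members, 44 were in the table, and all 44 were tested. Of these 12 rose and 12 fell (54.5% called, near the 53.0% of all genes), with a median log2 fold change of 0.07. Fabp5, a fatty acid carrier protein, measured 4.29, 11.9 and 6.24 CPM with vehicle and 41.1, 33.1 and 28.0 CPM with AOA. Acsl1, another long-chain synthetase, measured 4.13, 4.95 and 4.99 CPM with vehicle and 17.2, 21.3 and 16.4 CPM with AOA. Fabp5 (log2 fold change 2.18, SE 0.33, adjusted p = 6.48e-04) and Acsl1 (log2 fold change 1.96, SE 0.20, adjusted p = 7.68e-05) had the largest rises of this list. Erg28, a scaffold of sterol demethylation, rose with a log2 fold change of 1.35, the elongase Elovl7 with 1.24 and the acyltransferase Agpat5 with 1.23 (adjusted p = 3.49e-04, 0.00195 and 6.57e-04).

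Dgat1 and Acss2 were among the genes that fell. Dgat1, which completes triglycerides, measured 303, 58.1 and 264 CPM with vehicle and 12.1, 11.9 and 11.6 CPM with AOA. The AOA values were alike and vehicle replicate 2 was far below the other vehicle libraries, yet the groups did not overlap and Dgat1 fell (log2 fold change -4.14, SE 0.53, adjusted p = 2.76e-04). Acss2, which makes acetyl-CoA from acetate, measured 71.7, 57.9 and 77.5 CPM with vehicle and 17.9, 20.5 and 22.7 CPM with AOA. It fell (log2 fold change -1.76, SE 0.16, adjusted p = 5.01e-05), opposite in direction to Acly, another source of cytosolic acetyl-CoA. Acsbg1, an acyl-CoA synthetase, fell with a log2 fold change of -2.72, the oxysterol receptor gene Nr1h3 with -2.42 and the acyltransferase Agpat4 with -1.44 (adjusted p = 1.95e-05, 0.00224 and 1.65e-04). Nr1h3 had 28 counts or fewer in every library.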

How the data were processed

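RNA of splenic mouse CD8+ T cells was compared between 3 vehicle and 3 AOA cultures. The authors made stranded mRNA libraries, ran STAR on the paired-end reads and deposited gene counts, not normalised, from uniquely mapped reads, beside gene lengths. Per the submitters' processing notes, bcl2fastq, STAR, featureCounts, DESeq2 and mm10 were used. Their versions, the annotation and the strand setting: not given in the sources used here.

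Differential expression was tested by edgeR 4.0.16 under R 4.3.3 (filterByExpr, minimum count 10, TMM, robust quasi-likelihood test, Benjamini-Hochberg adjustment over 11759 genes, threshold 0.05), without the mouse as a block. CPM values used TMM library sizes, and log2 CPM a prior count of 2. Alternatives were DESeq2 1.42.0, limma 3.58.1 (voom), other scaling and filters, a mouse block and each library left out. The fitting was tested on simulated counts. Members, lists and the naming rule (all called members, the main regulators and palmitate enzymes, and up to 5 further pathway genes per direction) were chosen with earlier results of these data known.

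Mouse numbers in the labels pair the groups. Within mice, deviations from group means had Pearson correlations of 0.0868, 0.189 and 0.194 across genes, which are not independent of each other. Each pair of libraries of a group exceeded sampling noise (chi-square per gene 10.03 to 70.9), so all were kept as separate samples. Gene coordinates are those of GRCm38, and promoters came from RefSeq (GRCm38.p6).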

Additional observations from a re-analysis of the deposited data

How the results depend on the processing

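Of the 19 called genes, 13 kept their call under all 13 other fits (Acat2, Acly, Acsl5, Ebp, Elovl6, Fasn, Hsd17b7, Idi1, Lss, Mvd, Pmvk, Scd1 and Srebf2). A replicate block for the mouse gave 21 called members: Scap (adjusted p = 0.0457) and Scd2 (adjusted p = 0.0450) were added, and no other call of a member changed. DESeq2 called 10 members lowered, 6 of them in the fatty acid branch. A minimum absolute log2 fold change of 1 left 3 members raised and 1 lowered (2 and 0 in the sterol branch, 1 and 1 in the fatty acid branch) and 6 raised and 7 lowered of the further pathway genes, against 26.2% of all genes called (12.1% higher and 14.1% lower). Leaving out each library gave 9 to 16 members raised and 4 to 10 lowered, 5 to 9 and 3 to 5 in the sterol branch, 4 to 7 and 1 to 5 in the fatty acid branch, and 10 to 12 and 8 to 11 of the further genes. The cause of these shifts was not tested.

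Among log2 fold changes, signs reversed only for uncalled genes. Msmo1 had log2 fold changes of 0.0047 with median-of-ratios size factors, 0.013 with total counts, 0.028 without a filter, 0.0080 by DESeq2 and 0.0001 by limma voom, and ranged from -0.16 to 0.14 with a library left out. With a library left out Fdps ranged from -0.14 to 0.26 and Nsdhl from -0.0098 to 0.25, and the sterol branch median from -0.0098 to 0.14. Without division by gene length the Elovl6 share differed by 3.93 points. The exact 10-base sterol element was in 0 member promoters. Requiring 10 CPM in 3 libraries left 34 members (Acsl3 and Tm7sf2 dropped out). Counts were low for some called members: the AOA values of Scd1 rest on 35 to 245 counts and the vehicle values of Idi1 on 78 to 126. The 3 libraries per group limit all tests.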
